A study of Mus musculus with 4 samples.

Results

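The receptors for the constant part of immunoglobulin G, the Fc gamma receptors, and the signalling chain they share were followed in whole colon of mice with dextran sulphate sodium (DSS) colitis. The set holds 5 genes, chosen by name: the activating receptors Fcgr1, Fcgr3 and Fcgr4, the inhibitory receptor Fcgr2b, and Fcer1g, the common gamma chain. They were read by 7 of the 56605 probes of the array, and all 5 were among the 19326 genes tested. Total RNA of whole colon from C57BL/6 mice was taken on day 5 of DSS in the drinking water and hybridised, labelled with Cy3, to 4 one-colour arrays. The control group was 2 Junb fl/fl samples without Cre. The mutant group was 2 Junb fl/fl Cd4-Cre samples, in which Cre is driven by Cd4 regulatory sequence and removes the floxed Junb alleles in cells of the T lineage. All samples of both groups carried the floxed alleles and had DSS, so there is no colon without colitis to compare with, and the age and sex of the mice are not in the labels. The comparison addressed how the mutant colon, in which the submitters describe worse DSS colitis, differed from the control colon.

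Fc gamma receptors let leukocytes respond to antigen coated with IgG. Fcgr1 encodes the high-affinity receptor, and Fcgr3 and Fcgr4 encode receptors of lower affinity. These activating receptors have no signalling motif of their own in the mouse and depend on the Fcer1g chain, whose tyrosine motif recruits the kinase Syk. Fcgr2b encodes the inhibitory receptor, whose own tail motif recruits the lipid phosphatase encoded by Inpp5d and opposes the activating signal. In the gut the receptors are known mainly from macrophages, monocytes, neutrophils and dendritic cells, and Fcgr2b also from B cells. None of these cells belongs to the T lineage in which Cd4-Cre acts.

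By the RefSeq genes of GRCm38.p6, Fcgr2b, Fcgr4 and Fcgr3 are consecutive protein-coding genes on chromosome 1. Fcer1g is on the same chromosome, and Fcgr1 is on chromosome 3. Promoters of all 5 members were in RefSeq's table. The 250 bases before the start site are shown for the 3 activating receptors and for Fcgr2b. That of Fcer1g, which is also compared with Fcgr2b below, was searched but is not shown. Of the 2 Fcgr3 promoters in the table the first is shown. The strand shown is that of the gene, 5′ to 3′, and capitals mark the motifs searched for.
Fcgr1, chr3:96293970-96294219, minus strand: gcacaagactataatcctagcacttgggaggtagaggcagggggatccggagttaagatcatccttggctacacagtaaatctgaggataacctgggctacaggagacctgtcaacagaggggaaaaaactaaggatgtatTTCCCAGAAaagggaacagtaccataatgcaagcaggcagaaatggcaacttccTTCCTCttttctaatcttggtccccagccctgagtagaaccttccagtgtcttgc
Fcgr3, chr1:171059404-171059653, minus strand: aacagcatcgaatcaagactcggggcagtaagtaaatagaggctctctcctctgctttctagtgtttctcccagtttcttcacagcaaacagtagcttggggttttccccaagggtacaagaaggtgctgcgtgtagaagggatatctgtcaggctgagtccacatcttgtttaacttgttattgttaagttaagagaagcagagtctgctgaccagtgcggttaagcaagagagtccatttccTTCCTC
Fcgr4, chr1:171018676-171018925, plus strand: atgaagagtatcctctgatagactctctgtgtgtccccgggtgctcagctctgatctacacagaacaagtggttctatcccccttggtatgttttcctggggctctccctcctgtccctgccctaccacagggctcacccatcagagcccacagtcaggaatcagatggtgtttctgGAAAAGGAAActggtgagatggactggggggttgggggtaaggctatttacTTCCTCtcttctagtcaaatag
Fcgr2b, chr1:170976072-170976321, minus strand: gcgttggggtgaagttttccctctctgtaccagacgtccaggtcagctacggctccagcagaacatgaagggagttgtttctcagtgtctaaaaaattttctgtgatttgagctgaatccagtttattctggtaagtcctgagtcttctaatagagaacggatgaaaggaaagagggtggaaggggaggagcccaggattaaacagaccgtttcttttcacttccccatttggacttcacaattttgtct

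The motifs were searched on both strands of the full RefSeq window of 300 bases, of which 50 lie after the start site. They were GAGGAA, the core bound by the myeloid factor PU.1, TTCNNNGAA, the GAS element bound by STAT factors, GAAA followed by any 2 bases and GAAA again, which resembles the element bound by interferon regulatory factors, and TGANTCA, the AP-1 site to which JunB binds. GAGGAA lay in the window of all 3 activating receptors, on the reverse strand as TTCCTC, and in 28.3% of 32851 windows of the table. TTCNNNGAA lay in the Fcgr1 window, as TTCCCAGAA, and in 8.3% of all windows. The GAAA pair lay in the Fcgr4 window, as GAAAAGGAAA, and in 3.44% of all windows. TGANTCA was in none of the member windows and in 7.81% of all windows. Neither Fcgr2b nor Fcer1g held any of the 4 motifs in this window. These matches are letters in a sequence, and binding was not measured.

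All 7 probes were well above background on all 4 arrays, none was saturated and none was marked as an outlier. Each probe had 1 spot. Between 27940 and 29093 of 56605 probes were well above background on an array, and the 75th percentile of intensity ran from 268 to 330. With 4 arrays in all, their number sets how precise any value here can be. The tissue label was borne out by its markers: all 10 epithelial genes and all 6 smooth muscle genes of the lists were tested, and their mean log2 levels lay between 5.92 and 6.11 and between 4.57 and 5.20. Xist, expressed from the inactive X chromosome, lay at -0.55 in control 1 and -0.77 in mutant 1, but at -6.13 in control 2 and -6.43 in mutant 2. The Y-linked Eif2s3y had the opposite pattern, so each genotype was 1 female (replicate 1) and 1 male (replicate 2) colon. Within each genotype, the 2 values therefore differ in sex as well as in mouse, and these cannot be told apart. In limma without the replicate number as a block, no gene passed an adjusted p of 0.05 (0%, smallest adjusted p = 0.373). An unadjusted p of 0.05 was passed by 9.29%, which is 1796 genes (5.31% higher and 3.98% lower in the mutants). A further requirement of a 2-fold difference left 1.36%.

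In this fit, no member differed between the genotypes beyond the spread within a genotype, which holds sex as well as mouse. None passed even the unadjusted threshold in it, and results with the replicate number as a block are given in the closing section. The means of the activating receptors and of the gamma chain were higher in the mutants, most for Fcgr4, while that of Fcgr2b differed by 0.00 on the log2 scale. Thus 4 of 5 members had a higher mutant mean, against 53.3% of all genes, and Fcgr3, Fcgr4 and Fcer1g were higher in both same-sex pairs, against 36.3%. In none of the 5 did the groups separate, as they did with both mutants above both controls in 25.7% of genes and below them in 17.6%. The spread came mainly from the controls. Control replicate 1 had the lowest value of the 4 arrays for every one of the 7 probes, and control replicate 2 was higher by 1.67-fold to 2.78-fold. Control 2 exceeded control 1 for 54.5% of all genes. For Fcgr1 and Fcgr2b the controls were also the lowest and the highest array, an order found in 5.52% of genes. Values below are the intensity as scanned, after background subtraction, and the log2 intensity relative to each array's 75th percentile. Levels of different probes cannot be set against each other.

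Fcgr4 encodes an activating receptor for IgG2a/c and IgG2b that is found on monocytes, macrophages and neutrophils. Its probe lies at chr1:172959738-172959797 (mm9, plus strand). Its intensity was 221 and 453 in controls 1 and 2 and 363 and 470 in mutants 1 and 2. On the relative log2 scale these were -0.58 and 0.46 against 0.22 and 0.81. The mutant values were the higher in both same-sex pairs, by 0.80 between the females and 0.34 between the males, but mutant 1 lay below control 2, so the groups overlapped. The mutant mean was 1.49-fold that of the controls (log2 difference 0.57 ± 0.39, SE, n = 2 and 2, limma adjusted p = 0.672).

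Fcgr1 encodes the high-affinity receptor, which can hold single IgG molecules. Its intensity was 75.3 and 151 in the controls against 119 and 115 in the mutants, or -2.13 and -1.12 against -1.38 and -1.22 on the relative log2 scale. Both mutant values lay between the control values. The female pair differed by 0.75 and the male pair by -0.10. The mean difference was 0.33 ± 0.36 (limma adjusted p = 0.797). Its probe, shown because it alone reads this gene, lies at chr3:96088462-96088521 (mm9, minus strand).
Fcgr1 probe: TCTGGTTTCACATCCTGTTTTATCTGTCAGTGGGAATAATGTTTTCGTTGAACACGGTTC

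Fcgr3 encodes the low-affinity activating receptor found on most myeloid cells and on natural killer cells. Its brighter probe (chr1:172981647-172981722, mm9, minus strand) spans 76 bases of genome. It had an intensity of 325 and 677 in the controls against 422 and 603 in the mutants. The relative log2 values were -0.02 and 1.04 against 0.44 and 1.17, with the male array the higher in each genotype. The difference was 0.29 ± 0.42 (limma adjusted p = 0.848), made up of 0.46 between the females and 0.12 between the males. A dimmer probe (chr1:172984129-172984188, mm9, minus strand) placed the arrays in the same order. Its relative log2 values were -1.88 and -0.63 in the controls against -1.19 and -0.57 in the mutants, a difference of 0.37 ± 0.46 (limma over all probes, adjusted p = 0.855). Both Fcgr3 probes thus overlapped between the groups, with control 1 the lowest and mutant 2 the highest.

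Fcgr2b, the inhibitory receptor, was read by a pair of probes that put the arrays in the same order, control 1, mutant 1, mutant 2 and control 2 from low to high, at different distances. The brighter probe (chr1:172890988-172891047, mm9, minus strand) had an intensity of 212 and 351 in the controls against 215 and 265 in the mutants. Its relative log2 values were -0.64 and 0.10 against -0.53 and -0.02, and the difference was 0.00 ± 0.31 (limma adjusted p = 0.999). The mutants lay inside the range of the controls. The dimmer probe (chr1:172895833-172895892, mm9, minus strand) had an intensity of 76.2 and 211 in the controls against 84.5 and 90.6 in the mutants. Its values were -2.12 and -0.64 against -1.88 and -1.57, so that control 2 stood apart from the other 3 arrays. The difference of -0.34 ± 0.49 (limma over all probes, adjusted p = 0.881) was 0.24 between the females and -0.93 between the males. The accessions in the deposited files list the same pair of RefSeq variants of Fcgr2b for each probe. The dimmer probes of Fcgr2b and Fcgr3 are shown because these genes are close relatives. No pair of the 7 member probes shared a run of more than 8 bases. The probes were compared only with each other, so whether a probe also reads the transcript of a relative was not tested.
Fcgr2b dimmer probe: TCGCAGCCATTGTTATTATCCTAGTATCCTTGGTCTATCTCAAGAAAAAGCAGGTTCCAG
Fcgr3 dimmer probe: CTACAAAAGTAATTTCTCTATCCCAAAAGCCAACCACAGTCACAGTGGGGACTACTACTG

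Fcer1g, the gamma chain (chr1:173159794-173159853, mm9, minus strand), had an intensity of 992 and 1709 in the controls against 1240 and 1464 in the mutants. Its relative log2 values were 1.59 and 2.38 against 1.996 and 2.45. The difference was 0.24 ± 0.30 (limma adjusted p = 0.826), with 0.41 between the females and 0.07 between the males. As for Fcgr3, the replicate 2 array was the higher in each genotype and the groups overlapped.

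**Figure D1:**
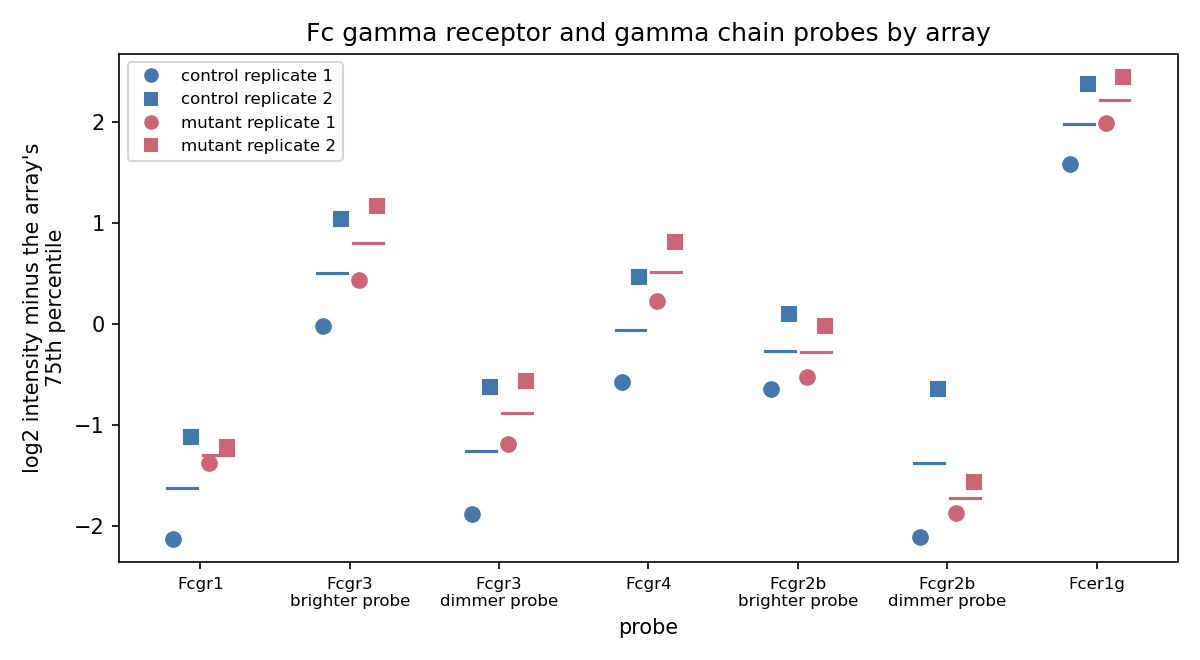
Relative log2 intensity (log2 intensity minus the 75th percentile of the array) of the 7 probes, with 1 point per array and a line at the mean of each genotype (blue, control; red, mutant; circles, replicate 1; squares, replicate 2). Control replicate 1 is the lowest point of every probe, and the genotypes overlap for all 7.

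The distance between the controls was large for these genes compared with the array as a whole. Control 2 was above control 1 by at least 2-fold for Fcgr1 (2.02-fold), Fcgr3 (2.10-fold) and Fcgr4 (2.06-fold), a gap that 2.3% of all genes tested reached in that direction and 4.83% in either. It was 1.73-fold for Fcer1g and 1.67-fold for the brighter Fcgr2b probe. Of all genes, 9.19% had controls at least as far apart as Fcgr2b, the member with the smallest gap. The mutants were closer together, with gaps of 0.16 for Fcgr1, 0.45 for Fcer1g, 0.51 for Fcgr2b, 0.59 for Fcgr4 and 0.73 for Fcgr3 on the log2 scale. The sign of the genotype difference changed for all members but Fcgr4 when 1 array was left out. Without control replicate 1 it was -0.18 for Fcgr1, -0.24 for Fcgr3, -0.16 for Fcer1g, -0.37 for Fcgr2b and 0.05 for Fcgr4. Without control replicate 2 all 5 were positive, from 0.37 for Fcgr2b to 1.09 for Fcgr4. Without mutant replicate 1, Fcgr2b was 0.26, and without mutant replicate 2, Fcgr3 was -0.07.

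The balance of activating and inhibitory receptor was compared within each array, as the log2 value of an activating receptor, or of the gamma chain, minus that of Fcgr2b. Only its change between genotypes can be read, since the level of this difference depends on the probes. The control mean is therefore set to 0 below. With the brighter probes, all 4 differences were higher in both mutants than in both controls. Among all other genes, 3.95% lay above Fcgr2b in this way. The controls of Fcgr2b were themselves 0.74 apart, so a gene without such a gap can hardly separate, which keeps this share low. In the lists below, 3 of 6 receptors listed with the gamma chain, 3 of 8 neutrophil genes and 1 of 16 macrophage and monocyte genes did so. Of these macrophage and monocyte genes, 3 lay lower instead. Of 19 activating signalling genes, 2 lay higher and 4 lower. Among 8 T cell genes and among 6 smooth muscle genes, 3 each lay lower and none higher. The 4 differences share the Fcgr2b values and are not independent of each other. With 2 arrays against 2, the exact permutation test cannot go below p = 0.3333, and each of the 4 gave that value (two-sided).

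For Fcgr4 against Fcgr2b the controls lay at -0.15 and 0.15 and the mutants at 0.54 and 0.61. This was the widest separation of the 4, and the ratio was 1.49-fold higher in the mutants (0.57 on the log2 scale, with SD 0.21 in the controls and 0.05 in the mutants, n = 2 each). For Fcer1g the controls lay at -0.03 and 0.03 and the mutants at 0.27 and 0.21, a difference of 0.24 (SD 0.04 and 0.04). Here the arrays of each genotype nearly coincided, although the controls were 0.79 apart in Fcer1g alone. For Fcgr3 the values were -0.16 and 0.16 against 0.19 and 0.40, a difference of 0.29. For Fcgr1 they were -0.14 and 0.14 against 0.50 and 0.15, so that mutant 2 exceeded control 2 by only 0.01. Within the same-sex pairs, the Fcgr4 ratio differed by 0.69 and 0.46, that of Fcer1g by 0.30 and 0.18, and that of Fcgr3 by 0.35 and 0.24, in the female and the male pair.

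The dimmer Fcgr2b probe gave the same order of the genotypes with larger differences. Against it the Fcgr4 ratio differed by 0.92, Fcgr1 by 0.67, Fcgr3 by 0.64 and Fcer1g by 0.58, and both mutants lay above both controls in each case. Of all other genes, 5.2% did so against this probe, a share kept low in the same way by the gap between its controls. The dimmer Fcgr3 probe gave 0.38 and 0.72 against the brighter and the dimmer Fcgr2b probe, again with the mutants above the controls. The high value of control 2 on the dimmer Fcgr2b probe entered all of these. In the female pair alone, which leaves that array out, the ratios to the dimmer probe differed by 0.56 for Fcgr4, 0.52 for Fcgr1, 0.23 for the brighter Fcgr3 probe and 0.17 for Fcer1g.

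**Figure D2:**
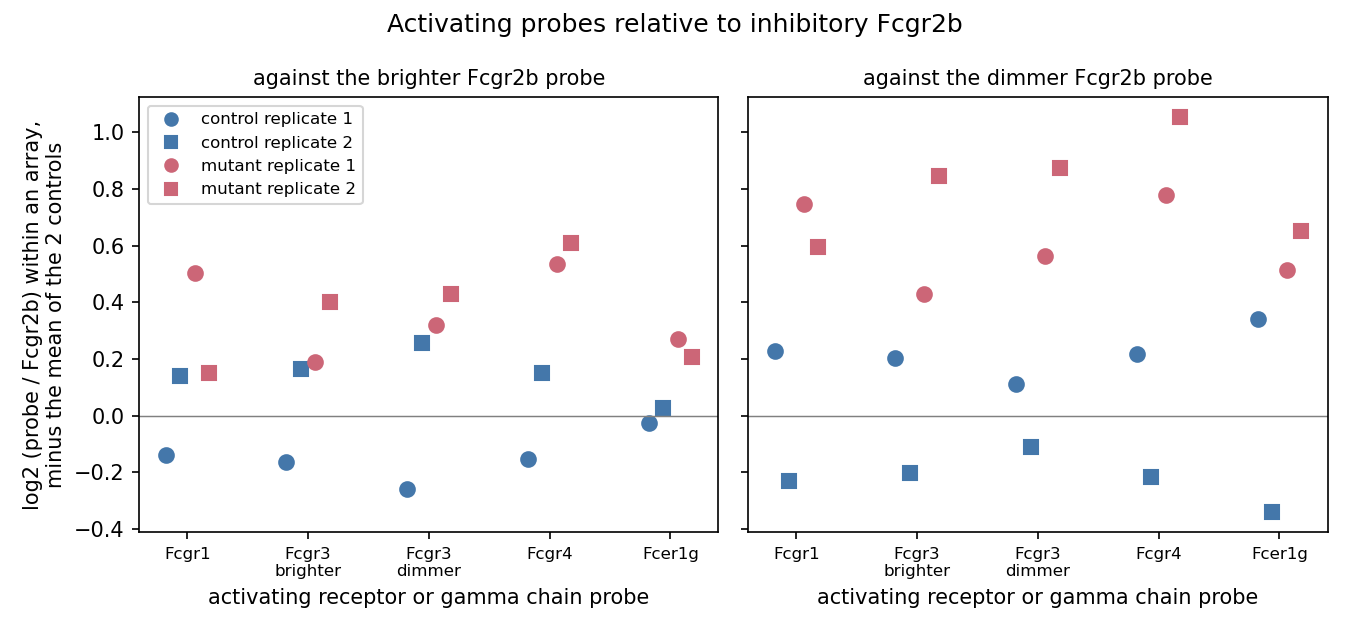
Log2 ratio of each activating receptor or gamma chain probe to Fcgr2b within an array, minus the mean of the controls, against the brighter (left) and the dimmer (right) Fcgr2b probe; 1 point per array (blue, control; red, mutant; circles, replicate 1; squares, replicate 2). All mutant points lie above all control points of the same probe, by 0.01 for Fcgr1 on the left, where mutant replicate 2 and control replicate 2 nearly meet.

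In whole tissue, fewer cells of a type and less RNA per cell cannot be told apart, so the lists of leukocyte markers are given beside the receptors. Of 16 macrophage and monocyte genes, all tested, 5 were higher and 11 lower in the mutants, with a median of -0.11 against 0.02 over all genes. The sign of this median rested on the controls, with -0.36 without control 1 and 0.17 without control 2. At an unadjusted p of 0.05, 1 was higher and 1 lower, and no gene of any list passed the adjusted threshold in the fit without a replicate block. Cd14, the lipopolysaccharide co-receptor, was higher (0.70 ± 0.10, limma adjusted p = 0.417) and the mannose receptor gene Mrc1 lower (-0.64 ± 0.23, adjusted p = 0.512). The fractalkine receptor gene Cx3cr1 differed by -0.35 ± 0.17 and Plac8 by 0.18 ± 0.13. The mean log2 level of the list was 1.70 and 2.10 in the controls against 1.73 and 1.96 in the mutants, and thus had control 1 lowest and control 2 highest, as Fcgr2b had. Its genes were further apart between the controls (median 0.54, with 12 of 16 higher in control 2) than all genes (median 0.03). The macrophage genes Csf1r (0.06 ± 0.28), Cd68 (-0.12 ± 0.22) and Adgre1 (-0.16 ± 0.33), and Itgam (0.16 ± 0.14), the integrin chain of myeloid cells, differed by less than the receptor Fcgr4 (0.57 ± 0.39). Cd14 and Mrc1 differed by more than Fcgr4, in opposite directions. Against the brighter Fcgr2b probe, 1 of the 16 genes lay higher in both mutants than in both controls, and 3 lay lower. The part of cell number in the receptor values was not tested.

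Neutrophil genes included the highest differences of the leukocyte lists. Of 11 genes 8 were tested, and 4 were higher and 4 lower, with 3 higher at an unadjusted p of 0.05. The median of 0.73 (0.20 without control 1) lay in a gap between the higher and the lower genes, so it describes neither. The calprotectin genes S100a8 (2.24 ± 0.78, limma adjusted p = 0.506) and S100a9 (2.24 ± 0.88, adjusted p = 0.537) and the lactoferrin gene Ltf (1.48 ± 0.26, adjusted p = 0.418) were those 3. These values are from the fit without a replicate block, and the calls with it are in the closing section. Without 1 array S100a8 ran from 1.25 (without mutant 2) to 3.23 (without mutant 1), and S100a9 from 1.22 (without control 1) to 3.26 (without control 2). The mean level of the list was -0.34 and 0.32 in the controls against 0.55 and 1.30 in the mutants, so both mutants lay above both controls. The 4 higher genes carried this rise, which the 4 lower genes did not share. Against the brighter Fcgr2b probe, 3 of 8 genes lay higher in both mutants than in both controls. Retnlg was not well above background in control 1, and its log2 values of -1.07 in control 2 against -2.29 and 0.53 in the mutants overlapped. Csf3r, the receptor for the neutrophil growth factor, differed little (-0.01 ± 0.13). The neutrophil genes Ly6g (-0.14 ± 0.30), Camp (-0.22 ± 0.35) and Elane (-0.01 ± 0.24) also had slightly lower means. These 4 lower genes overlapped between the groups. Camp lay near the detection limit. In mutant 1 it was at -4.25, below the dimmest spot well above background on that array (-4.12). How far neutrophil RNA entered the Fcgr3, Fcgr4 and Fcer1g values was not tested. B cell genes, which could carry Fcgr2b, were lower in 6 of 7 cases (median -0.22). The other lists had medians of -0.26 for dendritic cells (5 of 8 tested), -0.10 for mast cells and basophils (8 of 9), -0.36 for natural killer cells (3 of 6) and -0.62 for T cells (8 of 8), with 0.09 for epithelium and -0.60 for smooth muscle. The mast cell and basophil median was -0.97 without control 1 and 1.49 without control 2. The 1 gene of that list past the unadjusted threshold was Hdc, the histamine-forming enzyme, which was higher (1.71 ± 0.36, limma adjusted p = 0.418). At an unadjusted p of 0.05, all 6 smooth muscle genes and 5 of 8 T cell genes were lower, and the part of these differences in the receptor values was not tested.

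**Figure D3:**
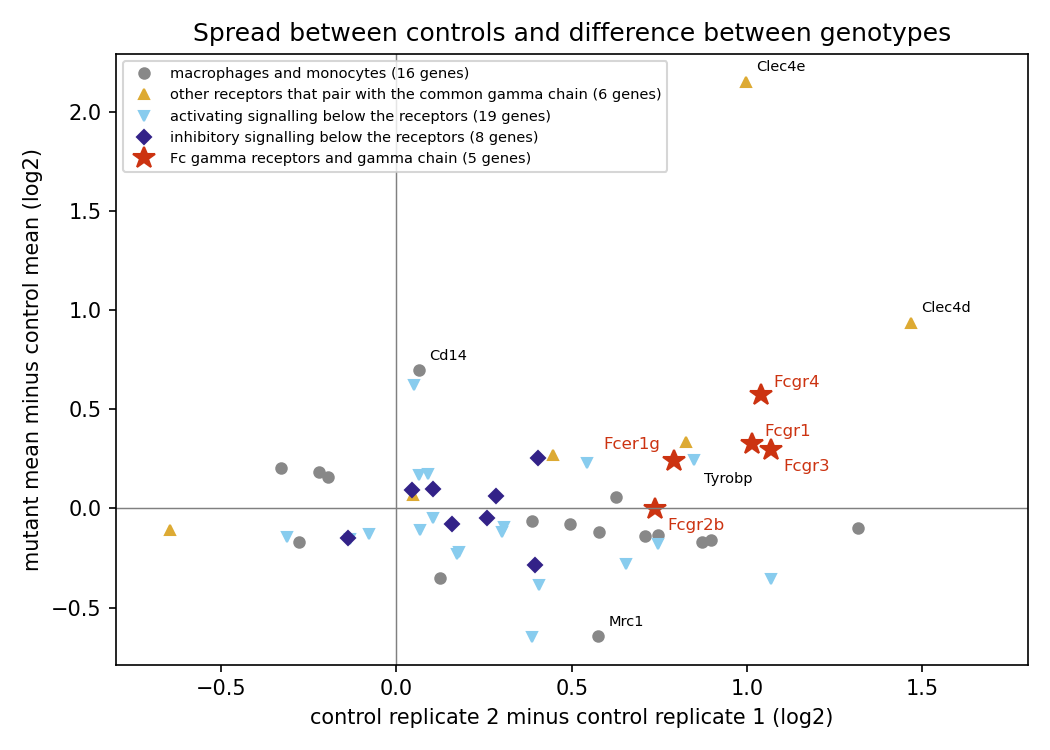
Difference between the genotypes (vertical axis, mutant mean minus control mean, log2) against the gap between the controls (horizontal axis, control replicate 2 minus control replicate 1, log2), with 1 point per gene for the 5 members and 4 gene lists. The members have gaps of 0.74 to 1.07; Fcgr2b lies at 0.00 on the vertical axis beside macrophage genes, and the activating receptors and Fcer1g lie at 0.24 to 0.57.

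Receptors listed with the gamma chain showed the largest single difference of the pathway. Of the 9 genes fixed for this list, 6 were tested, 5 were higher and 1 was lower, with a median of 0.30, and 1 was higher at an unadjusted p of 0.05. That gene was Clec4e, which encodes Mincle, a C-type lectin that senses microbial glycolipids and cell damage and signals through Fcer1g. Its relative log2 values were -3.55 and -2.55 in the controls against -1.54 and -0.26 in the mutants, without overlap. The difference of 2.15 ± 0.54 was 4.44-fold (limma adjusted p = 0.418), with 2.005 between the females and 2.297 between the males. The size depended on the background correction, and with normexp correction Clec4e differed by 1.28 ± 0.33. The call for Clec4e with the replicate number as a block is in the closing section. Clec4d, its partner lectin, lay at -2.53 and -1.06 against -1.66 and -0.06 (0.94 ± 0.70), and the fungal receptor Clec4n differed by 0.33 ± 0.30. Clec7a, the beta-glucan receptor Dectin-1, which has a signalling motif in its own tail, differed by 0.27 ± 0.19. Clec4d, Clec4n and Clec7a overlapped between the groups.

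The genes that carry the activating signal onward had mostly lower means in the mutants. Of 20 such genes 19 were tested, 5 were higher and 14 lower, with a median of -0.13, and 1 was higher and none lower at an unadjusted p of 0.05. That gene was Pik3cg, the catalytic subunit of a phosphoinositide 3-kinase (0.62 ± 0.23, limma adjusted p = 0.521). It lay at -3.21 and -3.16 in the controls against -2.53 and -2.59 in the mutants. With normexp background correction Pik3cg differed by 0.28 ± 0.11. The Src family kinase Lyn, which phosphorylates both kinds of receptor tail, differed by 0.18 ± 0.11 and Syk by -0.13 ± 0.11. The kinase Fyn (-0.65 ± 0.30), the adaptor Lat2 (-0.39 ± 0.22) and the small GTPase Rac2 (-0.22 ± 0.13) had lower means. Tyrobp, the other adaptor chain of myeloid receptors, followed the order of Fcer1g, with 1.26 and 2.11 in the controls against 1.64 and 2.22 in the mutants (0.25 ± 0.34). On the inhibitory side, all 8 genes were tested, with 4 higher and 4 lower, a median of 0.01 and none past the unadjusted threshold. Inpp5d, the phosphatase recruited by Fcgr2b, differed by -0.29 ± 0.17, its relative Inppl1 by 0.10 ± 0.11 and the protein phosphatase Ptpn6 by -0.05 ± 0.15. The adaptors Dok2 and Dok3 differed by 0.25 ± 0.19 and -0.15 ± 0.15.

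Other receptors for immunoglobulins had means on both sides of 0. Of 16 genes 12 were tested, 5 were higher and 7 lower (median -0.09), and 1 was lower at an unadjusted p of 0.05. That gene was Fcrls, an Fc receptor-like scavenger receptor, at -2.38 and -2.64 in the controls against -3.24 and -3.81 in the mutants. The difference was -1.02 ± 0.31 (limma adjusted p = 0.453), and -0.29 ± 0.11 with normexp background correction. Fcmr, the receptor for IgM, differed by -0.45 ± 0.20 and the B cell gene Fcrla by -0.32 ± 0.17. Trim21, which binds antibody inside cells, differed by 0.24 ± 0.13. Fcgrt, the neonatal receptor that carries IgG across cells, differed by -0.18 ± 0.24, and Pigr, which carries IgA and IgM across epithelium, by -0.04 ± 0.15. Of 8 immunoglobulin heavy and joining chain genes, 2 were tested. Ighg3, the constant region of IgG3, differed by -0.22 ± 0.30 and Jchain by 0.03 ± 0.25, so the array gave little on the IgG that these receptors bind.

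The genes whose profile over the 4 arrays came nearest to each member were found by Euclidean distance between centred log2 values, over 13321 genes with a RefSeq symbol. Nearest to Fcgr1 were Wfdc17 (distance 0.08), Hsph1 (0.12) and Clec4n (0.19). Nearest to Fcgr3 were Foxl1 (0.05), Ms4a6d (0.09) and Ptafr (0.12), and nearest to Fcgr4 were Ifitm1 (0.08), an immunoglobulin heavy chain variable segment (0.11) and Nthl1 (0.18). Fcgr2b was nearest to Sphk1 (0.02), Col4a1 (0.04) and Bmp4 (0.05), and Fcer1g to Bmp7 (0.03), Smoc1 (0.05) and Fkbp2 (0.07). With only 4 arrays many genes share a profile. The members were 0.25 to 0.61 apart from each other, and for each of them 19 to 192 of the 13321 genes were nearer than its nearest fellow member. Fcgr2b and Fcgr4 were the members furthest apart.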

How the data were processed

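The deposited files hold linear spot intensity from Agilent Feature Extraction 11.5.1.1, the version in the submitters' processing notes. The processed signal is background-corrected, per the file headers, and no normalization between arrays is recorded. Flags for spots well above background, saturated or outlying are deposited beside it. All 4 arrays lay on 1 slide. Groups came from the sample titles.

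Processed signals were put on the log2 scale, and the 75th percentile of an array's non-control spots was taken off. Repeat spots were averaged, leaving out outliers. Probes well above background on at least 2 arrays were kept, and the brightest stood for its gene. limma 3.58.1 in R 4.3.3 (lmFit, eBayes with intensity trend, two-sided, no block) gave differences, mutant minus control, with moderated SE. p-values were adjusted by the Benjamini-Hochberg method over all genes. They measure the spread between these samples. The fit was also run on simulated data with independent noise and no sex difference, which cannot show how it handles the sexes here. The ratio to Fcgr2b was tested by exact permutation over arrays. Alternatives changed background correction, normalization, filter, probe choice, arrays, block and variance trend.

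The members and the 14 gene lists were chosen with earlier results of these data known. Named genes were all members, up to 4 of each list by smallest unadjusted p, a fixed set of receptor, signalling and myeloid genes, and the 3 nearest profiles of each member. The remaining tested neutrophil genes are named as well. For some cell type lists only counts and medians are given, and 1 gene of the fixed set is not reported here. Genes keep the array's names. Promoters are from RefSeq, GRCm38.p6, and were not set against the mm9 probe positions.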

Additional observations from a re-analysis of the deposited data

Results flagged for a closer look

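The replicate 1 arrays were female and the replicate 2 arrays male in both genotypes, by Xist and Eif2s3y, so each sex gave 1 mutant and 1 control. For 3 of the 7 probes the genotype difference had opposite signs in the sexes. Fcgr1 was 0.752 between the females and -0.102 between the males on the log2 scale. Fcgr2b was 0.111 and -0.113 with its brighter probe, and 0.236 and -0.925 with its dimmer probe. With 1 pair per sex this difference was not tested.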

How the results depend on the processing

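Fits with the replicate number as a block, which here is also sex, called 46 genes at the adjusted threshold against 0 without it, and 3383 against 1796 at the unadjusted threshold. No member was among the 46: adjusted p was 0.184 for Fcgr4 (unadjusted 0.0130) and 0.341 to 0.997 for the others. Clec4e, Ltf, S100a8 and S100a9 were. Same-numbered arrays were of the same sex. Their deviations from the group means correlated at 0.24 across genes, which with 2 pairs does not show a pairing beyond sex. An unadjusted p under 0.05 together with a 2-fold difference held for 263 genes, and for 85 after normexp correction, 571 without a filter on dim probes (3607 at the unadjusted threshold) and 156 with all 4 arrays required above background. Leaving out 1 array gave 340 to 500 such genes, 864 to 2167 at the unadjusted threshold and 0 at the adjusted threshold.

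No member passed the adjusted threshold in any setting. Without control replicate 2, unadjusted p was 0.0171 for Fcgr1 and Fcgr4 and 0.0471 for Fcer1g. Under quantile normalization Fcgr2b was 0.017 in place of -0.0012, Csf1r -0.013 and Jchain -0.20, and after normexp correction Jchain was -0.0064. Some dim genes had smaller differences after normexp correction. Clec4e was 1.28 in place of 2.15, Fcrls -0.29 in place of -1.02, Pik3cg 0.28 in place of 0.62 and Fyn -0.20 in place of -0.65. Without 1 array, Fcgr1 ran from -0.18 to 0.83, Fcgr3 from -0.24 to 0.83, Fcgr4 from 0.05 to 1.09, Fcgr2b from -0.37 to 0.37 and Fcer1g from -0.16 to 0.63. The differences of Tyrobp (-0.18 to 0.67), Clec4n (-0.079 to 0.74), Csf1r (-0.25 to 0.37), Adgre1 (-0.61 to 0.29), Cd68 (-0.41 to 0.17), Csf3r (-0.16 to 0.13), Ptpn6 (-0.18 to 0.082), Fcgrt (-0.48 to 0.13), Pigr (-0.20 to 0.11), Ighg3 (-0.65 to 0.21) and Jchain (-0.23 to 0.29) also changed sign.

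The mean ratios to Fcgr2b stayed higher in the mutants in all settings. Whether both mutants lay above both controls was checked only under the main processing, with every probe. Without 1 array the mean differences of the ratios ran from 0.42 to 0.72 for Fcgr4, 0.15 to 0.50 for Fcgr1, 0.13 to 0.46 for Fcgr3 and 0.21 to 0.27 for Fcer1g. Fcer1g gave 0.19 after normexp correction and 0.18 after quantile normalization. The mean of all probes gave 0.74 for Fcgr4, 0.51 for Fcgr3 and 0.41 for Fcer1g. The other Fcgr2b probe, chosen as an alternative after the data were seen, gave 0.92, 0.67, 0.64 and 0.58 for Fcgr4, Fcgr1, Fcgr3 and Fcer1g. The causes were not tested. No slide or scan block was run, since all arrays lay on 1 slide and 1 scan.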
